A study of Homo sapiens with 6 samples.

Results

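The 10 genes described here are 4 from the ERBB2 region of chromosome band 17q12 (ERBB2, GRB7, MIEN1 and STARD3) and 6 of epithelium (KRT8, KRT18, KRT19, KRT4, MAL2 and AZGP1). The 6 are grouped here as luminal genes, those of the simple epithelium that lines glands and ducts, although KRT4 is better known from stratified epithelium. They are 10 of the 60612 Ensembl genes in the count table, each matched by its identifier. The genes were chosen from earlier results of the same libraries, as genes of these kinds that were low in DMSO replicates 1 and 2, with no numeric cutoff. A low value there, and a difference between B2 and DMSO, are therefore descriptions and carry no test. RNA was sequenced from wild-type U937, an established human myeloid line that the labels class as acute myeloid leukemia. Cells in serum-free RPMI-1640 were exposed for 36 h to 1 µM of a compound known here only as B2, or to its DMSO vehicle, with 3 libraries each. The labels do not say that replicates came from separate cultures, so the spread between them may be technical.

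ERBB2 encodes a receptor tyrosine kinase that binds no known ligand and signals by pairing with other ERBB receptors. In a subset of breast and gastric cancers the gene is amplified together with its neighbours on 17q12, and these are then expressed at a high level with it. Keratins are filament proteins built from a type I and a type II partner, and KRT8 with KRT18 or KRT19 is the combination of simple and luminal epithelium. Blood cells as a rule do not carry it.

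Of the 10 genes, 8 were low in DMSO replicates 1 and 2, as they were picked to be, and 2, STARD3 and MIEN1, were not. In ERBB2, GRB7, KRT8, KRT18, KRT19, KRT4, MAL2 and AZGP1 the level in CPM (counts relative to a library total that was scaled with TMM factors) in DMSO replicates 1 and 2 both lay below 50% of the mean of the 3 B2 libraries. In 7 of these 8 genes, all but AZGP1, those libraries were the 2 lowest of the 6. For AZGP1, B2 replicate 3 raised the B2 mean, so that B2 replicates 1 and 2 also lay below 50% of it. Among all 17224 genes that passed the filter on low counts, 2.74% were below 50% in both DMSO replicates 1 and 2. These libraries were the 2 lowest in 4.18%. All 10 genes passed that filter, 4 of them with 0 counts in DMSO replicate 1.

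**Figure D1:**
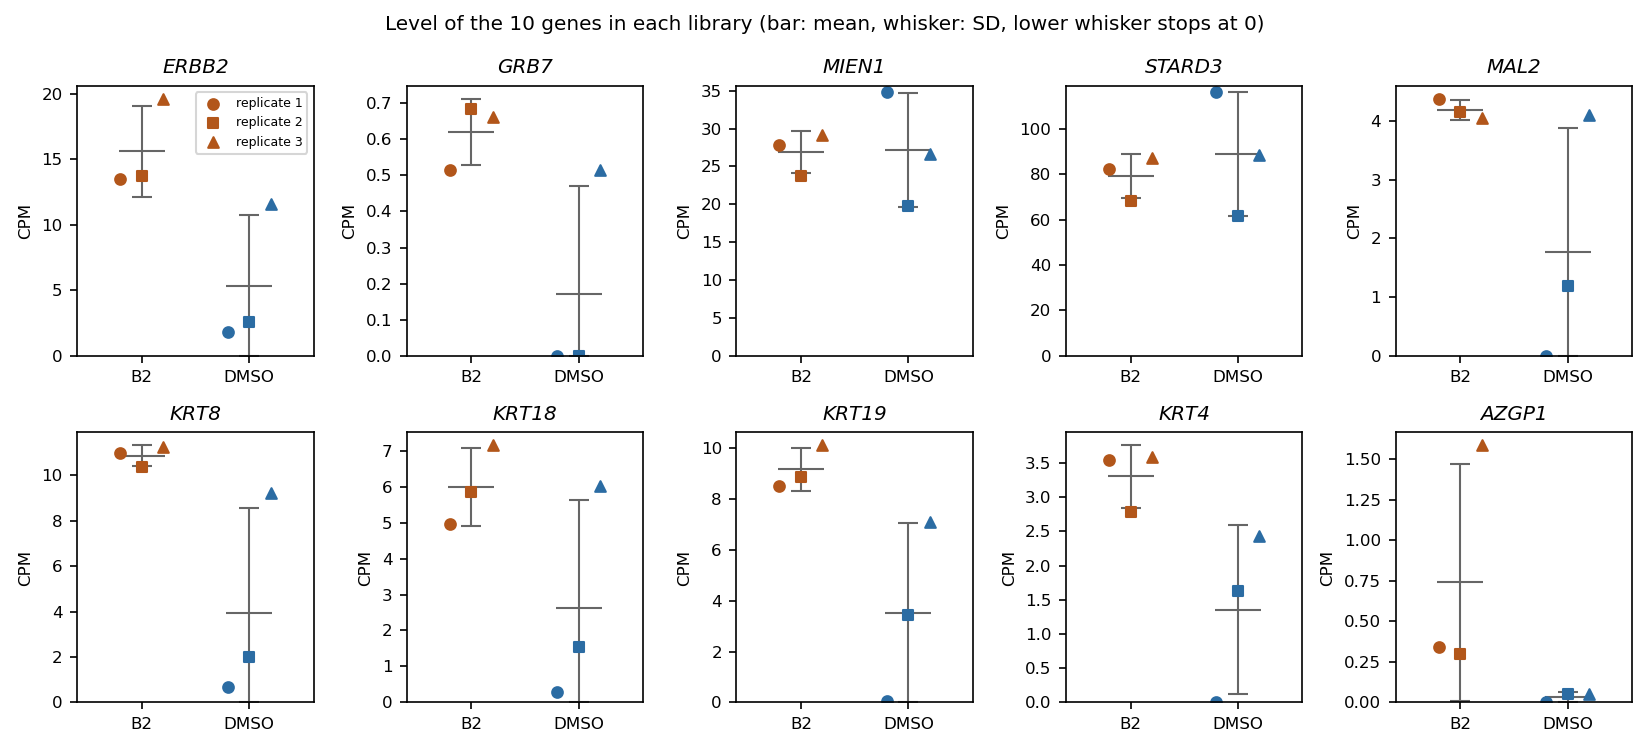
Level in CPM of the 10 genes in the 3 B2 and 3 DMSO libraries, each panel with its own axis from 0, points marked by replicate number, bars for the group mean and whiskers for the SD. In ERBB2, KRT8, KRT18, KRT19, MAL2 and GRB7, DMSO replicate 3 lies near the B2 libraries and DMSO replicates 1 and 2 lie near 0 or below 50% of the B2 mean, while STARD3 and MIEN1 are highest in DMSO replicate 1.

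ERBB2 lies at chr17:39687914-39730426 on the forward strand (GRCh38, GENCODE 29, as are all gene positions here). It read 13.5, 13.7 and 19.6 CPM in B2 replicates 1, 2 and 3 and 1.81, 2.56 and 11.6 CPM in DMSO replicates 1, 2 and 3. The low values were those of DMSO replicates 1 and 2, and DMSO replicate 3, at 74.4% of the B2 mean, came close to the lowest B2 library, so that the groups were separate but only narrowly. The means were 15.6 ± 3.47 CPM under B2 and 5.33 ± 5.45 CPM under DMSO (SD, n = 3 per group). The log2 fold change was 1.55, with a standard error (SE) of 0.67. ERBB2 shares 571 of its 10321 exon bases with MIEN1 and 194 with PGAP3, both on the opposite strand. The sources used here do not tell whether the counting used strand, and without it reads from the shared bases cannot be told apart. In DMSO replicate 1 the gene had 101 counts, where MIEN1 had 1945 and PGAP3 1569.

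GRB7 (chr17:39737927-39747291), an adaptor protein that binds activated ERBB2 through its SH2 domain, had the lowest counts of the 4 genes. It had 38, 50 and 40 counts in the B2 libraries, 0 counts in DMSO replicates 1 and 2 and 40 counts in DMSO replicate 3. A count of 0 allows up to 3 counts, or 0.0537 CPM in DMSO replicate 1 and 0.0386 CPM in DMSO replicate 2, against a B2 mean of 0.620 ± 0.0918 CPM (SD, n = 3). These limits cover counting error only. GRB7 was thus detected in every B2 library and in DMSO replicate 3 at a similar level, 0.515 CPM, and in neither of the other DMSO libraries.

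STARD3 (chr17:39637065-39663484), a cholesterol-binding protein of late endosomes, read 82.3, 68.2 and 86.9 CPM under B2 and 116, 61.6 and 88.6 CPM under DMSO. MIEN1 (chr17:39728496-39730787, reverse strand), a small membrane-anchored protein linked to cell migration, read 27.9, 23.8 and 29.1 CPM under B2 and 34.9, 19.8 and 26.7 CPM under DMSO. Both genes were highest in DMSO replicate 1 and lowest in DMSO replicate 2, and in both the groups overlapped. Their log2 fold changes were -0.17 (SE 0.30) for STARD3 and -0.01 (SE 0.30) for MIEN1, on either side of the -0.08 that was the median of all genes tested. A part of MIEN1, 571 of 2292 exon bases, is shared with ERBB2, so its reads carry the same limit.

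RefSeq start-site windows (GRCh38.p14, from 250 bases before to 50 bases after the annotated start) are shown for the 3 genes ERBB2, MIEN1 and STARD3, which are neighbours but differed in pattern, and for KRT4, which followed ERBB2 in being low in DMSO replicates 1 and 2. Capitals mark matches on either strand to 4 motifs: GCCNNNGGC (the AP-2 motif), CCGGAAG (an ETS factor motif), GGGCGG (the GC box) and TATAA (the TATA motif). The windows are chr17:39687844-39688143 (+), chr17:39730483-39730782 (-), chr17:39636894-39637193 (+) and chr12:52814067-52814366 (-), written 5′ to 3′.
ERBB2: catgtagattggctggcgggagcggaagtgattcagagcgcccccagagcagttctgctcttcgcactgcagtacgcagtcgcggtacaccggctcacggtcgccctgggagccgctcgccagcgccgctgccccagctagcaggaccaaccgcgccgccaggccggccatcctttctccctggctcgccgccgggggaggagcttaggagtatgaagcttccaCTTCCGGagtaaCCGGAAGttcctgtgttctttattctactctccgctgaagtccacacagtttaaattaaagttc
MIEN1: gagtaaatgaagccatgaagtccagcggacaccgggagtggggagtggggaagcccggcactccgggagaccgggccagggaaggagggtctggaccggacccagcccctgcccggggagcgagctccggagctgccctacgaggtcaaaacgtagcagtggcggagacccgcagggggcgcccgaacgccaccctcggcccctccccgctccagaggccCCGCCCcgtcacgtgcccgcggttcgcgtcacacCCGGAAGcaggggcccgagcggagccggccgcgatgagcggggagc
STARD3: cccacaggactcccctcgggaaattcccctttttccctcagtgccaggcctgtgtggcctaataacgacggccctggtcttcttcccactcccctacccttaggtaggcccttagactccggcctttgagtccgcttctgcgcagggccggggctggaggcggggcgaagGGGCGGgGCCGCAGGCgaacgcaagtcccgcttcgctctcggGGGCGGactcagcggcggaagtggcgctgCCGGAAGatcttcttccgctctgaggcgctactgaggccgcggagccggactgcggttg
KRT4: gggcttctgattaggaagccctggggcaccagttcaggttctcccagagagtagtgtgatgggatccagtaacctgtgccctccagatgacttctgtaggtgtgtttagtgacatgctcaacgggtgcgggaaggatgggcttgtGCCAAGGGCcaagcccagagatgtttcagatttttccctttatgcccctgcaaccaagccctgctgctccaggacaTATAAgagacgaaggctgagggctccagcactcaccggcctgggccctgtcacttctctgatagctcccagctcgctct

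The ERBB2 window held 2 matches to the ETS motif and none to the other motifs. MIEN1 held 1 ETS match and 1 GC box, and STARD3 held 1 ETS match, 2 GC boxes and 1 AP-2 match. KRT4 held 1 TATA match and 1 AP-2 match. Over 35116 RefSeq windows of the same length, 10.3% held the ETS motif, 45.0% the GC box, 23.2% the AP-2 motif and 20.4% the TATA motif. The KRT4 window had 5 CpG dinucleotides, against 24 in ERBB2, 32 in MIEN1 and 27 in STARD3. The window of KRT8, which was low in the same libraries as ERBB2, held 1 ETS match and 2 CpG dinucleotides, and that of AZGP1 held no match and 1 CpG. In these windows an ETS match was thus present in genes that were low in DMSO replicates 1 and 2 and in genes that were not. Other start sites of these genes were not examined, so motifs there would be missed. The ERBB2 window spans the upstream end of the annotated gene. On that side lies PGAP3, which shares 194 exon bases with ERBB2 on the opposite strand. The ETS matches in this window therefore cannot be assigned to ERBB2 alone. PGAP3 was not low, at 157% and 81.1% of its B2 mean in DMSO replicates 1 and 2. The windows of MIEN1, KRT4 and KRT8 (chr12:52926420-52926719) lie inside their annotated genes.

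The genes around ERBB2 were examined with 26 further genes of the region, of which 18 were tested. No gene of the 18 passed the edgeR test between B2 and DMSO (8 positive, 10 negative, median log2 fold change -0.03), and none was below 50% of the B2 mean in both DMSO replicates 1 and 2. PGAP3, a GPI-anchor remodelling enzyme that lies between STARD3 and ERBB2, read 15.5, 16.9 and 21.5 CPM under B2 and 28.1, 14.6 and 21.4 CPM under DMSO. It was named for its position after its values were seen, and like STARD3 and MIEN1 it was highest in DMSO replicate 1 and lowest in DMSO replicate 2. The 4 with the highest CPM among the 18 were PSMD3, a proteasome subunit, TOP2A, a topoisomerase of dividing cells, THRA, a thyroid hormone receptor, and MSL1, a chromatin component. In DMSO replicate 1 they stood at 154% of the B2 mean for PSMD3, 81.0% for TOP2A, 139% for THRA and 50.6% for MSL1, and in DMSO replicate 2 at 82.9%, 134%, 79.3% and 125%. Of the tested genes of the region, only ERBB2 and GRB7 were below 50% in both libraries, and both were picked for being so.

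**Figure D2:**
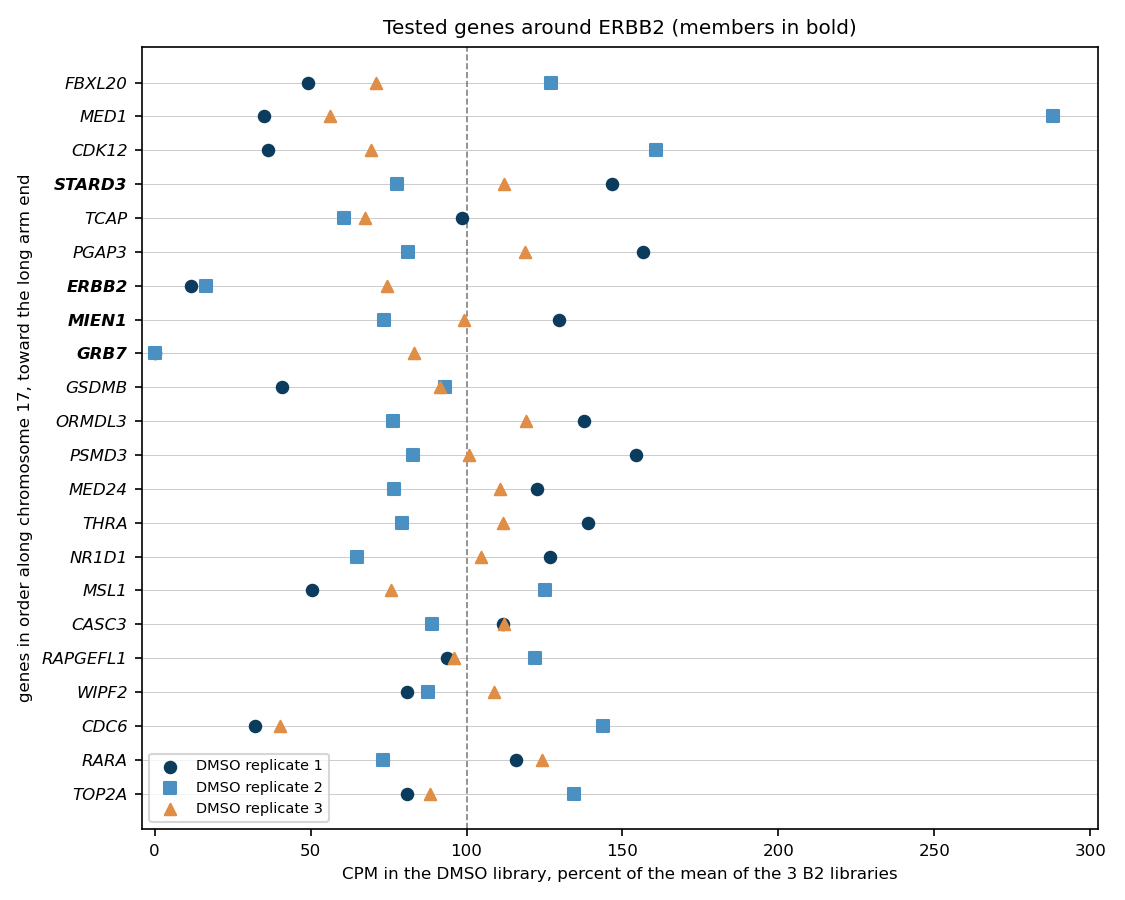
CPM in each DMSO library as a percentage of the mean of the 3 B2 libraries (dashed line, 100%) for the tested genes around ERBB2, in their order along chromosome 17, with the described genes in bold. ERBB2 and GRB7 have both DMSO replicate 1 and DMSO replicate 2 far to the left, at 11.6% and 16.4% for ERBB2 and at 0 for GRB7, while PGAP3 and MIEN1 on either side of ERBB2 lie between 73.6% and 157%.

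KRT8, the type II keratin of simple epithelium (chr12:52897187-52949954), read 10.99, 10.4 and 11.2 CPM in B2 replicates 1, 2 and 3. Its DMSO values were 0.663, 1.98 and 9.23 CPM in replicates 1, 2 and 3, from 37, 154 and 716 counts. DMSO replicates 1 and 2 were low, at 6.10% and 18.3% of the B2 mean, and DMSO replicate 3 stood at 84.9%, below each B2 library. The coefficient of variation over the 3 B2 libraries was 4.17%, where the median over all genes tested was 22.5%.

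KRT18, the type I partner of KRT8 (chr12:52948871-52952901), read 4.97, 5.85 and 7.15 CPM under B2 and 0.287, 1.53 and 6.03 CPM under DMSO. DMSO replicate 3 lay within the range of the B2 libraries, so the groups overlapped. KRT8 and KRT18 stand head to head on opposite strands and share 525 exon bases in the annotation, which is 16.3% of KRT18 and 7.63% of KRT8, so a part of their counts may be exchanged.

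KRT19, the type I keratin of simple and ductal epithelium (chr17:41523617-41528308), lies on the same chromosome arm as ERBB2 but outside the region described above. It had 629, 649 and 613 counts with B2 and 4, 266 and 552 counts with DMSO, that is 8.52, 8.89 and 10.1 CPM against 0.0717, 3.43 and 7.11 CPM. All 3 DMSO libraries lay below all 3 B2 libraries, with DMSO replicate 1 at 0.781% of the B2 mean and DMSO replicate 2 at 37.3%.

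KRT4, a type II keratin of stratified lining epithelium such as that of the mouth and oesophagus (chr12:52806549-52814551), read 3.55, 2.78 and 3.58 CPM under B2 and 0, 1.64 and 2.44 CPM under DMSO. Its DMSO replicate 2, at 49.5% of the B2 mean, was the least reduced value among the 8 low genes. The groups did not overlap, yet DMSO replicate 3 was close to B2 replicate 2.

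MAL2, a membrane protein of apical transport in polarized epithelium, on chromosome 8, had 323, 303 and 245 counts with B2 and 0, 93 and 318 counts with DMSO. In CPM these were 4.38, 4.15 and 4.05 against 0, 1.20 and 4.10, so DMSO replicate 3 stood inside the B2 range. The B2 libraries differed by a coefficient of variation of 4.05%, the lowest of the 10 genes.

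AZGP1, a secreted glycoprotein with an MHC class I-like fold that is made by glandular epithelium (chr7:99966720-99976157), did not share the pattern of the keratins. It had 25, 22 and 96 counts with B2 and 0, 4 and 4 counts with DMSO, and DMSO replicate 3 was as low as DMSO replicate 2. B2 replicate 3 alone stood high, at 1.59 CPM against 0.339 and 0.301 CPM in the other B2 libraries, a coefficient of variation of 98.5%. The value 4 was itself overabundant in the table (6465 occurrences, against 3144 for 3 and 2022 for 5), so these DMSO counts are less exact than their size implies.

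On a scale of CPM per kilobase of annotated exon, which allows genes to be set side by side, STARD3 (mean with B2 15.3) and MIEN1 (11.7) were the most abundant, followed by KRT19 (3.93), KRT18 (1.86), KRT8 (1.58), ERBB2 (1.51), MAL2 (1.22), KRT4 (0.998), AZGP1 (0.275) and GRB7 (0.172). The length counts all annotated exons of a gene together, 6881 bases for KRT8 and 2336 for KRT19. Genes with many alternative exons therefore read lower, and the order depends on the annotation. KRT18, KRT8 and ERBB2 had overlapping ranges over the B2 libraries and could not be ordered among themselves. STARD3 and MIEN1 did not overlap, at 13.2 or more against 12.7 or less, nor did MIEN1 and KRT19. AZGP1 and GRB7 overlapped. In DMSO replicate 1 KRT19 stood below KRT18, KRT8 and ERBB2: ERBB2 was at 0.175, KRT8 at 0.0963, KRT18 at 0.0891 and KRT19 at 0.0307, with KRT4, MAL2, AZGP1 and GRB7 at 0 counts.

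Whether the genes rose and fell in fixed proportion was described by the ratio of each gene's CPM to that of KRT8 within each library. In the 3 B2 libraries and DMSO replicate 3 the ratios stayed within narrow ranges for most genes: 0.360 to 0.444 for MAL2, 0.771 to 0.9 for KRT19, 0.264 to 0.323 for KRT4, 0.453 to 0.654 for KRT18, 0.0469 to 0.0661 for GRB7 and 1.23 to 1.74 for ERBB2. AZGP1 was the exception, from 0.00559 to 0.141. In DMSO replicate 2 the proportions were different, with 1.73 for KRT19 and 0.825 for KRT4, both above all other libraries, while GRB7 was at 0 and ERBB2 (1.29) stayed within the range of the other 4.

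DMSO replicate 1 departed the other way for KRT19, whose ratio to KRT8 was 0.108, and ERBB2 stood at 2.73 times KRT8. Counts there were small, 37 for KRT8 and 4 for KRT19, and the ERBB2 counts include any reads of the bases shared with MIEN1 and PGAP3. ERBB2, GRB7, KRT18, KRT19, KRT4 and MAL2 thus kept similar proportions to KRT8 in 4 libraries, and most of them did not in the 2 libraries in which they were low. STARD3 and MIEN1 followed neither, with ratios to KRT8 from 6.58 to 175 and from 2.30 to 52.6 over the 6 libraries.

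**Figure D3:**
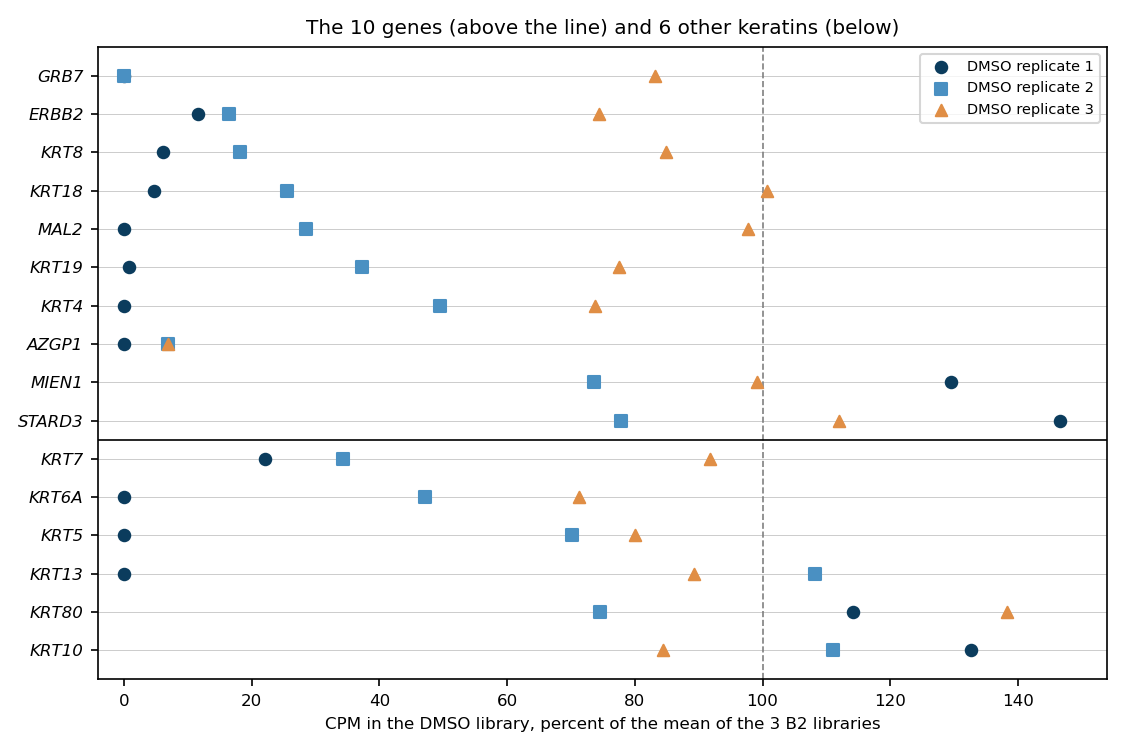
CPM in each DMSO library as a percentage of the mean of the 3 B2 libraries (dashed line, 100%) for the 10 genes, above the line, and 6 other keratins, below it. In DMSO replicate 2 the genes spread from 0 for GRB7 through 18.3% for KRT8 and 49.5% for KRT4 to 70.2% for KRT5 and 108% for KRT13, while in DMSO replicate 1 most of them lie near 0.

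Keratins outside the chosen genes varied in how they stood in the 2 low libraries. Of 14 basal and squamous genes, 7 were tested and 0 passed the edgeR test (5 positive, 2 negative, median log2 fold change 0.56, against -0.08 for all genes tested). KRT5, the type II keratin of basal cells, read 5.56, 6.17 and 6.39 CPM under B2 and 0, 4.24 and 4.83 CPM under DMSO. KRT13, the usual partner of KRT4, read 2.18, 1.70 and 2.44 CPM under B2 and 0, 2.28 and 1.88 CPM under DMSO. KRT6A, a keratin of stressed or stratified epithelium, stood at 0 and 47.1% of its B2 mean in DMSO replicates 1 and 2, and KRT10, of the upper skin layers, at 133% and 111%. Both KRT5 and KRT13 had 0 counts in DMSO replicate 1, like KRT4, but in DMSO replicate 2 they stood at 70.2% and 108% of the B2 mean, where KRT8 stood at 18.3%. Of the other tested keratins, KRT81 was low in both, at 25.3% in DMSO replicate 1 and 0 in DMSO replicate 2, with 92.5% in DMSO replicate 3. KRT86 was not, at 263% in DMSO replicate 1 and 59.5% in DMSO replicate 2. The ratio of KRT5 to KRT8 was 0.506 to 0.596 in the B2 libraries and DMSO replicate 3 and 2.14 in DMSO replicate 2, and that of KRT13 was 0.164 to 0.217 and 1.15.

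Among the remaining receptors and ligands of the ERBB family, only ERBB3, the kinase-impaired partner of ERBB2, was below 50% of the B2 mean in both low libraries, at 45.3% and 45.6%. Of 14 genes 7 were tested, 0 passed the edgeR test, 4 were positive and 3 negative (median log2 fold change 0.28). EGFR, the receptor for epidermal growth factor, read 1.42, 1.12 and 1.65 CPM under B2 and 0.161, 1.21 and 1.79 CPM under DMSO. It was low in DMSO replicate 1 alone, at 11.5% of the B2 mean. The ligands TGFA and HBEGF had the highest CPM on the list, with log2 fold changes of 0.28 (SE 0.46) and -0.02 (SE 0.45), and the neuregulin NRG4 had -0.19 (SE 0.42). ERBB4 and the ligands BTC, EPGN and NRG3 had 0 counts in all 6 libraries. Of 33 genes of ERBB signalling 32 were tested, 0 passed the test and 0 lay below 50% of the B2 mean in both DMSO replicates 1 and 2 (10 positive, 22 negative, median -0.12). The 4 with the highest CPM were the chaperone HSP90AB1 (log2 fold change 0.26, SE 0.38), the adaptor GRB2 (-0.08, SE 0.26), the kinase co-chaperone CDC37 (-0.13, SE 0.24) and the kinase AKT2 (-0.15, SE 0.29).

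Epithelial genes that were not among the 10 also had many members low in DMSO replicates 1 and 2. Of 49 genes of epithelial junctions and identity 43 were tested and 0 passed the edgeR test (36 positive, 7 negative, median log2 fold change 0.87, against -0.08 for all genes tested). Both libraries were below 50% of the B2 mean in 19 of the 43, which is 44.2% against 2.74% of all genes tested, among them the cadherin CDH1, the claudin CLDN7, the transcription factor ELF3, the protease inhibitor SPINT2 and the keratin KRT7. Low genes entered the tested set through the libraries in which they were high, so this share describes those 43 and not the whole list. Of the 43, 13 had a mean of at least 1 CPM, and most of the 19 lay below that, where counts are few. The 2.74% is not matched for level. Among all tested genes with a B2 mean of 1 to 20 CPM the share was 2.38%. Most of the 19 had a B2 mean below that window, so this share does not match them for level either. The 4 with the highest CPM were not low in both: in DMSO replicates 1 and 2, SPINT1, a protease inhibitor, stood at 141% and 72.0% of its B2 mean, the junction protein JUP at 151% and 70.3%, the keratin KRT80 at 114% and 74.5%, and the mucin MUC1 at 85.4% and 46.7%. The list's summed level, which these carry, was 116 to 162 CPM under B2 and 90.7 to 154 CPM under DMSO. EPCAM, an adhesion molecule of most epithelia, read 1.12, 1.01 and 0.611 CPM under B2 and 0, 0.683 and 0.438 CPM under DMSO. In DMSO replicate 1, 19 of the 49 genes had 0 counts, against 1 to 4 in the B2 libraries, 6 in DMSO replicate 2 and 2 in DMSO replicate 3.

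Genes of luminal breast and secretory cells gave a mixed picture. Of 28 genes 14 were tested, 0 passed the edgeR test, and 11 were positive and 3 negative (median log2 fold change 0.79). In 7 of the 14 both DMSO replicates 1 and 2 were below 50% of the B2 mean, against 2.74% of all genes tested. As in the list above, these 14 passed the filter in part through the libraries in which they were high, so the count does not describe all 28. Of the 14, 3 had a mean of at least 1 CPM (XBP1, SLC39A6 and NAT1). The 7 low genes lay below that, where counts are few. Among the 7 were FOXA1 and TFAP2C, the latter an AP-2 factor known as an activator of ERBB2 in breast cancer cells. TFAP2C read 0.542, 0.602 and 0.528 CPM under B2 and 0, 0 and 0.464 CPM under DMSO, and like GRB7 it had 0 counts in DMSO replicates 1 and 2. The 4 genes with the highest CPM were XBP1, a factor of secretory cells that myeloid cells also express (log2 fold change 0.01, SE 0.28), the zinc transporter SLC39A6 (-0.46, SE 0.40), the acetyltransferase NAT1 (-0.40, SE 0.30) and the carbonic anhydrase CA12 (0.88, SE 0.45). On this list, PGR, PIP, SCGB1D2, ANKRD30A, TFF3, AGR3 and TFAP2B had 0 counts in all 6 libraries, and the oestrogen receptor ESR1 was at most at 0.0660 CPM. Other breast genes of the list were detected in every library, with 10 to 49 counts for GATA3 and 10 to 33 for MUCL1. In DMSO replicates 1 and 2, GATA3 stood at 79.9% and 84.2% of its B2 mean and MUCL1 at 56.4% and 44.6%. The list's summed level, of which XBP1 made up most, was 197 to 284 CPM under B2 and 230 to 283 CPM under DMSO. The part of epithelial cells or of their RNA in the levels of the 10 genes was not tested.

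**Figure D4:**
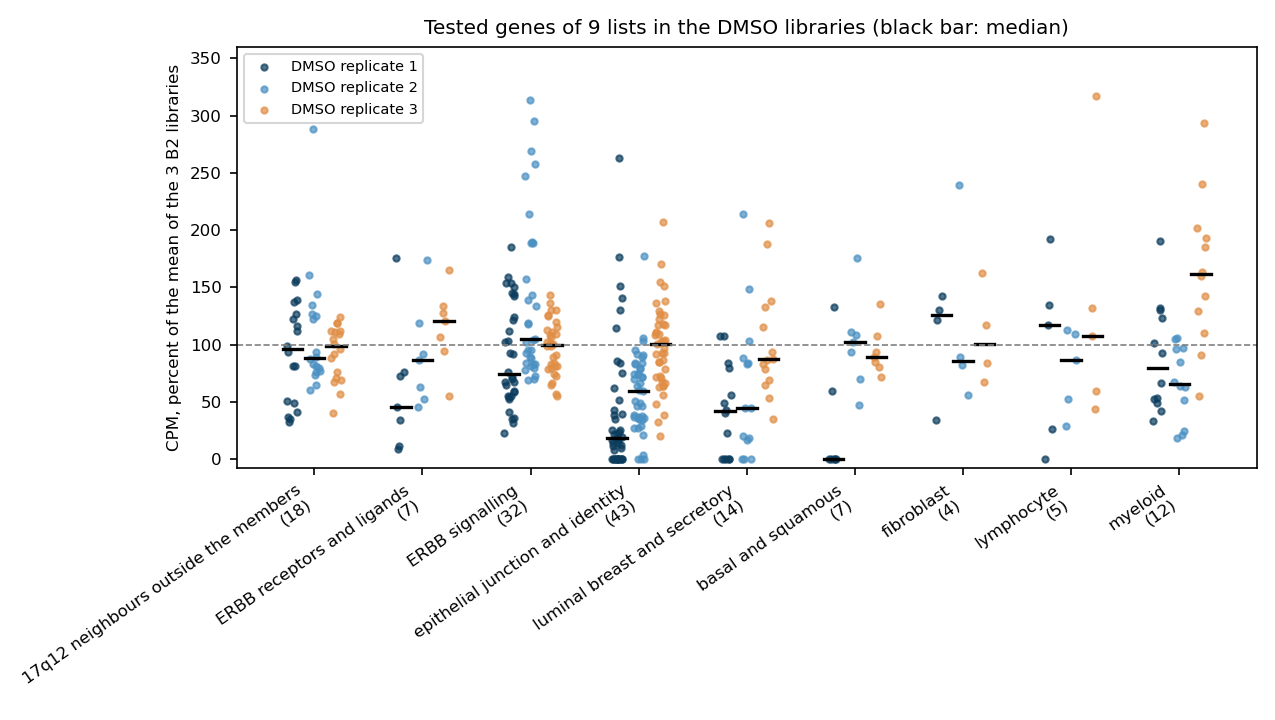
CPM in each DMSO library as a percentage of the mean of the 3 B2 libraries (dashed line, 100%) for the tested genes of 9 lists, one point per gene and library, with black bars for medians and the number of tested genes in brackets. For the 43 genes of epithelial junctions and identity the medians are 18.7%, 59.5% and 100% in DMSO replicates 1, 2 and 3, and for the 7 basal and squamous genes 0, 102% and 89.3%.

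Markers of other cell types were examined in the same way. Fibroblast genes (4 of 10 tested, 1 positive and 3 negative, 0 passed) summed to 8.54 to 12.1 CPM under B2 and 11.2 to 12.2 CPM under DMSO, with PDGFRA and THY1 at 0 counts throughout. Lymphocyte genes (5 of 9 tested, 2 positive and 3 negative, 0 passed) summed to 8.21 to 10.8 CPM under B2 and 7.79 to 12.3 CPM under DMSO, and the T cell receptor genes CD3D, CD3E and CD3G and the B cell gene MS4A1 had 0 counts. All 12 myeloid genes were tested and present in every library, 0 passed, and their sum was 2760, 2693 and 5529 CPM in B2 replicates 1, 2 and 3 and 3437, 2700 and 5423 CPM in the DMSO replicates, so it was highest in the libraries numbered 3. Below 50% of the B2 mean in both DMSO replicates 1 and 2 were 2 of the 12 myeloid genes (CSF1R at 42.3% and 18%, CD68 at 49.3% and 24.3%) and 1 of the 5 tested lymphocyte genes (CD2 at 26.1% and 28.6%). B2 replicate 3 raised these B2 means. For CSF1R and CD68, B2 replicates 1 and 2 were also below 50% of the mean, and for CD2, B2 replicate 1 was. KRT8, KRT18 and KRT19 were also highest in the library numbered 3 within each group, though among the B2 libraries KRT8 differed little (10.4 to 11.2 CPM) where CD68 ran from 61.2 to 541 CPM. The part of the difference that the libraries numbered 3 share was not tested.

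The genes outside the 10 whose levels were most like theirs were found by Pearson r over the 6 libraries, between log2(CPM + 0.5) and the mean standardised profile of the 10, among 12867 genes with a mean of at least 1 CPM. With 6 points, high values are easily reached, and r is given as a description. The 8 most alike were SUSD2 (r = 0.996), PGLS-DT (0.990), KRT7 (0.988), CD9 (0.981), FBLN1 (0.980), S100A16 (0.975), ENSG00000264668 (0.971) and DHRS2 (0.969). The size of the swing differed: DMSO replicates 1 and 2 stood at 0 and 3.72% of the B2 mean for SUSD2 and at 2.53% and 3.81% for DHRS2, against 69.5% and 70.9% for PGLS-DT. DHRS2, a short-chain dehydrogenase, read 7.05, 7.46 and 6.79 CPM under B2 and 0.179, 0.271 and 5.50 CPM under DMSO, a wider gap than that of KRT8. KRT7, a type II keratin of ductal epithelium, read 6.17, 4.92 and 8.55 CPM under B2 and 1.45, 2.24 and 6.004 CPM under DMSO. The profile is the mean of the 10 genes themselves, so their own r with it sets a part against the whole and describes only how they vary within the set. It was 0.994 for ERBB2, 0.962 for KRT8, 0.943 for KRT18, 0.901 for MAL2, 0.857 for KRT19 and 0.840 for KRT4, but 0.06 for MIEN1 and -0.10 for STARD3. GRB7 and AZGP1 have a mean below 1 CPM and were given no r.

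KRT8 and KRT18 have many processed copies in the genome that could take up their reads. Of 125 pseudogene rows of KRT8, KRT18, KRT19 and AZGP1, 5 reached 50 counts over the 6 libraries, all of KRT8. KRT8P12 had the most, with 154, 185 and 119 counts with B2 and 72, 206 and 176 counts with DMSO. In DMSO replicate 1 it thus had more counts than KRT8 itself, which had 37, and in DMSO replicate 2 its 206 counts were above the 154 of KRT8. KRT8P12 shares 142 of its 2047 exon bases with KPNA4 on the opposite strand, which had 725 and 3252 counts in those libraries, and without strand such reads cannot be told apart. The copies KRT8P3, KRT8P33, KRT8P36 and KRT8P46 had 57 to 142 counts in total. Over 1388 aligned bases of the KRT8 coding sequence, KRT8P12 was 90.6% identical. A stretch of 120 bases, from base 214 to base 333 of the coding sequence of ENST00000552150.5, is shown with its 17 differing bases in capitals (GENCODE 29 transcripts).
KRT8: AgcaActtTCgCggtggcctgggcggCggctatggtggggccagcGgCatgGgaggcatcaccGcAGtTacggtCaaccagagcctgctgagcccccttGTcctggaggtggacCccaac
KRT8P12: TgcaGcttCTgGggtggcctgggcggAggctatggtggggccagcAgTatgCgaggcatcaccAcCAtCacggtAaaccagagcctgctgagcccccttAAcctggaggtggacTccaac

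Between B2 and DMSO no gene of the 10, nor any other, passed the edgeR quasi-likelihood test at an adjusted p below 0.05: 0 of 17224, or 0% (85 genes at an unadjusted p below 0.05; limma-voom called 0 and DESeq2 3). For the 10 genes log2 fold changes are given as descriptions. Besides the values above they were 1.45 for KRT8 (SE 0.80), 1.19 for KRT18 (SE 0.85), 1.37 for KRT19 (SE 1.03), 1.28 for KRT4 (SE 1.12), 1.24 for MAL2 (SE 1.19), 1.81 for GRB7 (SE 1.39) and 4.29 for AZGP1 (SE 1.08). In 5 of the 10, ERBB2, KRT4, KRT8, KRT19 and AZGP1, every B2 library was above every DMSO library, against 1.94% of all genes tested, and in 0 of the 10 every B2 library was below, against 1.63%. In 7 of the 10 B2 was higher at each replicate number, the exceptions being MIEN1, STARD3 and MAL2. The share over all genes tested was not taken for this count. The choice of the genes bears on numbers 1 and 2, so nothing is read from it. By replicate number, the differences in log2(CPM + 0.5) for KRT8 were 3.30, 2.13 and 0.27 for numbers 1, 2 and 3, for ERBB2 2.60, 2.22 and 0.73, and for MAL2 3.29, 1.45 and -0.02. For these 3 genes the difference was larger at numbers 1 and 2 than at number 3, whereas for AZGP1 (0.75, 0.54 and 1.92) it was largest at number 3. Without DMSO replicate 1 the estimate for KRT8 was 0.95, for ERBB2 1.14 and for KRT18 0.67. Without DMSO replicate 3 it was 3.03 for KRT8, 2.83 for ERBB2, 2.78 for MAL2 and 2.71 for KRT18, and without B2 replicate 3 it was 3.10 for AZGP1. GRB7 ran from 1.23 without DMSO replicate 2 to 8.43 without number 3 and with the replicate block. Without its DMSO replicate 3 counts GRB7 is at 0 in that group, so the upper value depends on the prior count and is no bound. With both libraries numbered 3 left out and the replicate number as a block, 7 of the 10 were called, against 0.176% of 17582 genes called higher with B2. That fit rests on the 2 libraries by which the genes were chosen, and nothing is read from it.

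Library totals ran from 61150740 to 78431054 counts, and mitochondrially encoded genes held 6.44% to 10.3% of them, most in DMSO replicate 1. Deviations of DMSO replicates 1 and 2 from the mean of all libraries ran in opposite directions with the GC content of transcripts (Spearman 0.53 and -0.60 across 17015 genes). B2 replicates 1 and 2 ran in the same 2 directions, at 0.22 and -0.30. The libraries numbered 3 stood at 0.05 with B2 and 0.10 with DMSO. GC content was 61.8% for KRT19, 56.2% for KRT8, 57.5% for ERBB2 and 39.4% for MAL2, against a median of 49.7%, and of the 8 low genes MAL2 alone lay below that median. The part of GC content in the levels of the 10 genes, and in the likeness of libraries with the same number, was not tested. In bulk RNA, fewer cells of a type and less RNA per cell cannot be told apart.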

How the data were processed

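RNA sequencing of 6 U937 libraries (3 B2, 3 DMSO) was analysed from 1 table of estimated counts (expected counts) that the authors deposited for 60612 Ensembl genes, not normalized and already whole numbers. The reads were aligned by HISAT2 2.0.4 (per the submitters' processing notes). For the counter, build, annotation and strand option, the sources used here give nothing. Symbols were matched for 60401 identifiers, and positions (GENCODE 29, GRCh38) for 58394. Columns were assigned by the library names in the labels.

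Genes were kept by filterByExpr (minimum count 10, minimum total 15) and scaled with TMM factors. B2 was compared with DMSO by glmQLFit and glmQLFTest of edgeR 4.0.16 (R 4.3.3) with treatment as the only term, Benjamini-Hochberg adjustment over 17224 genes and a threshold of 0.05. The SE is the fold change divided by the root of F. The script was tested on simulated data. Alternatives included DESeq2 1.42.0 and limma-voom 3.58.1. The 10 genes and all gene lists were chosen with earlier results of these data known. Beyond the 10, the genes named were up to 4 tested genes of each list with the highest mean CPM, pseudogene rows with at least 50 counts and the 8 genes most alike by r. Others were named after their values were seen: PGAP3, ERBB3, ESR1, GATA3, MUCL1, EPCAM, CDH1, CLDN7, ELF3, SPINT2, FOXA1, TFAP2C, CSF1R, CD68, CD2, KRT81, KRT86, KPNA4 and those at 0 counts.

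Replicate numbers were taken to pair the libraries, since deviations from the group means correlated at 0.21, 0.40 and 0.50 for numbers 1, 2 and 3. The pairing was used for the differences by replicate number and for the replicate block. The main fit left it out, so its SE values include the spread between numbers. This rests on the data alone, since no label explains the numbers.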

Additional observations from a re-analysis of the deposited data

How the results depend on the processing

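The count of genes changed was 0 under RLE factors, library totals, both other filters, limma-voom, counts divided by 4 and the replicate block, which changed no call. It was 3 with DESeq2 on all genes, 0 to 1 without 1 library (1 without B2 replicate 2), and 48 without number 3 and with the replicate block, which leaves 1 residual degree of freedom. The cause was not tested. Of 146 estimates for the 10 genes under 15 alternatives, 19 moved by more than the replicate spread. Of the 8 genes other than MIEN1 and STARD3, none changed sign. MIEN1 changed sign under 6 and STARD3 under 1. KRT8 ranged from 0.95 (without DMSO replicate 1) to 3.19 (without number 3, with the block), and ERBB2 from 1.14 (without DMSO replicate 1) to 2.83 (without DMSO replicate 3). With the replicate block, ERBB2 was at 2.02 (SE 0.40), KRT8 at 2.20 (SE 0.58) and GRB7 at 3.68 (SE 1.40). In the main fit, the SE was 0.67 for ERBB2, 0.80 for KRT8 and 1.39 for GRB7. The summed CPM of the 10, as a log2 ratio of group means, was 0.22 with STARD3 as the largest part, 0.20 with RLE factors, 0.32 with library totals, 1.37 for the luminal genes only and 0.01 for the 17q12 genes only. Between 8 and 14 other genes reached r of 0.95 under other measures of likeness, against 11. A count of 3 corresponded to 0.0386 to 0.0537 CPM, so GRB7 and AZGP1 are limited by depth.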
